A study of Mus musculus with 6 samples.

Results

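The 8 genes Hmgcs1, Idi1, Fdps, Sqle, Lss, Cyp51, Dhcr7 and Insig1 belong to the cholesterol synthesis pathway or to its feedback control, and are known targets of the transcription factor SREBP2. They were taken from the deposited array values as the probe sets whose platform annotation named 1 gene, that gene being one of the 8. This gave 18 probe sets for 8 of the 18194 genes measured, and of several probe sets of a gene the one brightest on average (log2, all arrays) stands for it. Signals of different genes come from different probes, so levels are compared between groups and never between genes.

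The arrays hold RNA from 6 samples of OLV2-1 mouse embryonic stem cells, a line carrying the fluorescent protein Venus at the Oct4 (Pou5f1) locus. All cells were sorted as Venus-positive, and each of 3 groups has 2 arrays. The undifferentiated embryonic stem cells (ESC) were sorted as CD31-positive according to the sorting protocol, and the epiblast stem cell-like cells (EpiSC-like) as Pecam1-negative from aggregates at day 3 of SFEBq. CD31 is the protein of Pecam1, and SFEBq is a serum-free suspension culture that induces neural differentiation. The last group was sorted from SFEBq aggregates at day 7, with no Pecam1 gate named, and was dissociated with EDTA in place of trypsin. All groups carry the same reporter allele and come from 1 line, so that differences between lines are not covered. Nothing in the labels ties the 2 samples of a group to separate cultures, and the spread behind each p-value may thus be technical.

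Cholesterol is made from acetyl-CoA through mevalonate, isoprenoid diphosphates, squalene and lanosterol. SREBP2 is held in the endoplasmic reticulum by SCAP and INSIG proteins while sterol is plentiful. When sterol falls, it moves to the Golgi, is cut by proteases and switches on the genes of the pathway, INSIG1 among them. In the embryo the pathway is needed for the growth of the neural tube and for the cholesterol attached to Hedgehog ligands.

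The 8 genes are the kind that SREBP2, together with NF-Y at CCAAT boxes and Sp1 at GC boxes, is known to control, so promoters are shown for the genes with the largest differences from ESC among the enzymes before squalene (Hmgcs1), the later enzymes (Cyp51) and the feedback control (Insig1). RefSeq windows of GRCm38.p6, from 250 bases before to 50 bases after a gene start, were found for 6 of the 8 genes (8 windows). Each was searched on both strands for TCACNCCAC (a form of the sterol regulatory element), CCAAT and GGGCGG, and no match overlapped another. Capitals mark the matches, and the reverse strand reads ATTGG for CCAAT and CCGCCC for GGGCGG.
Hmgcs1, chr13:119690101-119690400, plus strand: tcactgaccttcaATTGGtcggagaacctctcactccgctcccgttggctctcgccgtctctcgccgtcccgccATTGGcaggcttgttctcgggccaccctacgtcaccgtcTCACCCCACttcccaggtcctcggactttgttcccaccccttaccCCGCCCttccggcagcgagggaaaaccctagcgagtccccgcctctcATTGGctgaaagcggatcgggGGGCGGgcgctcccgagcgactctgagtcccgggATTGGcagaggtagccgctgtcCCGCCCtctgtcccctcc
Insig1, chr5:28071162-28071461, plus strand: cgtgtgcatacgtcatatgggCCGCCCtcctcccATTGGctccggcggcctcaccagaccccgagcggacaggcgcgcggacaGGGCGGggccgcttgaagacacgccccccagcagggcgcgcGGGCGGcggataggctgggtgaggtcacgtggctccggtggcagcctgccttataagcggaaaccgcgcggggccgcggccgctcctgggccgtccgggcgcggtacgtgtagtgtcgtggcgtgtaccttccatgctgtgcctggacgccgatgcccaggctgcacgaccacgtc
Cyp51, chr5:4104648-4104947, minus strand, written 5′ to 3′ along the gene: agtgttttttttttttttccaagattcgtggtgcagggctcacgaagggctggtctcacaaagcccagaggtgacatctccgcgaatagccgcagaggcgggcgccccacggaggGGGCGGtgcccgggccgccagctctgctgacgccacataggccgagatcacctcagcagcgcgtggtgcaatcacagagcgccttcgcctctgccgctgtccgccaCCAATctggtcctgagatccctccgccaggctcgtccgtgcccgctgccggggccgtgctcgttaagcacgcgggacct
TCACNCCAC was found in 1 of the 8 windows, as TCACCCCAC at position -137 of Hmgcs1 relative to its start, against 1.24% of the 32851 windows in the RefSeq table. CCAAT was found in 6 of the 8 windows and GGGCGG in 7 of the 8, against 37.4% and 35.7% of all windows. Dhcr7 holds 3 of the 8 windows. Hmgcs1 had 4 CCAAT matches, and Insig1 and Cyp51 had 1 each. A match of letters is a description and not a binding site, and the arrays do not measure binding.

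The arrays had been scaled before deposition to a trimmed mean of 500.003 to 500.004 intensity units. Across genes, arrays of one group correlated with r from 0.9755 to 0.9781 (log2 scale). Arrays of different groups had r from 0.9478 to 0.9757, so the ranges overlapped. Highest signals were 30793 to 36841 on the replicate 1 arrays and 63296 to 66643 on the replicate 2 arrays. No label calls the replicate number a batch. Differences within the arrays of each number are given below for the 8 genes, beside the pooled ones, though not for every comparison. Of the markers that set the groups apart, Fgf5, a marker of postimplantation epiblast, was higher in EpiSC-like cells than in ESC (limma adjusted p = 0.0140), and the naive factor Klf4 was lower (adjusted p = 0.0448). In that comparison limma called 3 of 8 naive markers lower (Klf4, Esrrb, Tfcp2l1) and 4 of 6 postimplantation epiblast markers higher (Fgf5, Pou3f1, Lef1, Sall2). It also called 2 of 6 neural (Sox1, Fabp7) and 1 of 6 fibroblast markers (Col1a2) higher. Over all genes it called 1.31% higher and 0.583% lower. Both EpiSC-like arrays lay below both ESC arrays for 8 of 8 naive markers (19.9% of all genes). They lay above both for 6 of 6 epiblast, 5 of 6 neural, 3 of 6 fibroblast and 1 of 8 visceral endoderm markers (25% of all genes). At day 7, Fgf5 and 3 of 6 neural markers (Sox1, Fabp7, Zic1) were called higher than in ESC (0.753% of all genes). Both day 7 arrays lay above both ESC arrays for 5 of 6 epiblast, 5 of 6 neural and 6 of 8 visceral endoderm markers (26.6% of all genes). They lay below both for 6 of 8 naive, 1 of 6 neural and 1 of 6 fibroblast markers (23.5% of all genes). The summed signal of 8 naive markers was 57544 and 76271 in ESC, 24777 and 19329 in EpiSC-like cells, and 38046 and 42216 at day 7. That of 8 visceral endoderm markers was 254 to 268 in ESC, 291 to 362 in EpiSC-like cells, and 557 and 2878 at day 7, with no marker of either list at 0 on every array. Pou5f1, the reporter's gene, stood at -0.42 ± 0.39 and -0.46 ± 0.39 against ESC (limma adjusted p = 0.680 and 0.587). In sorted bulk samples, fewer cells of a type and less RNA per cell cannot be told apart.

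At day 7, Insig1 rose 3.68-fold over ESC, the only one of the 8 that passed in any of the 3 comparisons. For 7 of the 8 genes both ESC arrays read below all 4 SFEBq arrays on the probe set used, and Fdps was the exception. The share of all genes that did so was not counted. Taken by group, both EpiSC-like arrays exceeded both ESC arrays for 25% of all genes, and both day 7 arrays for 26.6%. Log2 differences (of signal + 16) had a median over the 8 genes of 0.80 from ESC to EpiSC-like cells, 0.84 from ESC to day 7, and 0.13 from EpiSC-like cells to day 7. The medians of all 18194 genes were 0.03, 0.02 and -0.02. Both comparisons with ESC share the ESC arrays, so they are not separate evidence.

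**Figure D1:**
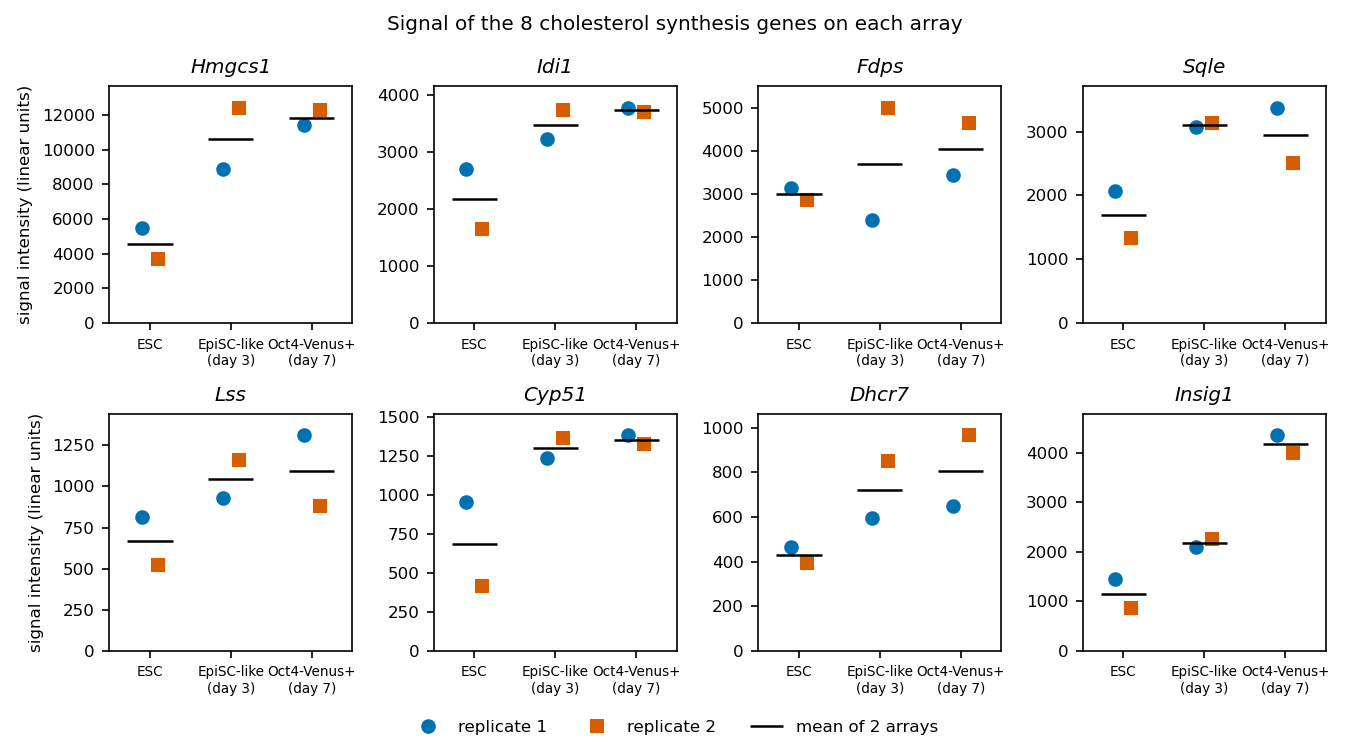
Signal intensity (linear units, axis from 0) of the 8 genes on each of the 6 arrays, with replicate 1 as circles, replicate 2 as squares and group means as bars. On the probe sets shown, the ESC arrays lie lowest for all genes but Fdps. Of these sets, Insig1 alone has both day 7 arrays (4358 and 4004) above both EpiSC-like arrays (2096 and 2253).

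Of the enzymes before squalene, Hmgcs1 (NCBI gene 208715) encodes HMG-CoA synthase, which makes the substrate of the pathway's rate-limiting reductase. Its signal was 5486 and 3693 on the ESC arrays, 8867 and 12442 on the EpiSC-like arrays, and 11419.8 and 12288 at day 7. All 4 SFEBq arrays exceeded both ESC arrays, while the EpiSC-like and day 7 arrays overlapped. The log2 difference from ESC was 1.22 ± 0.30 (SE) in EpiSC-like cells (2.33-fold, limma adjusted p = 0.111) and 1.39 ± 0.30 at day 7 (2.63-fold, adjusted p = 0.0878), so neither passed. Within the replicate 1 and replicate 2 arrays it was 0.69 and 1.75 for EpiSC-like cells, and 1.06 and 1.73 for day 7.

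Idi1 (NCBI gene 319554) encodes the isomerase that interconverts the 5-carbon isoprenoid units. It read 2709 and 1642 in ESC, 3228 and 3733 in EpiSC-like cells, and 3782 and 3706 at day 7. On the probe set used, both SFEBq groups lay above both ESC arrays and close to each other. Its log2 differences from ESC were 0.71 ± 0.30 and 0.82 ± 0.30 (limma adjusted p = 0.312 and 0.219). They were 0.25 and 0.48 within the replicate 1 arrays, and 1.18 and 1.17 within the replicate 2 arrays. A second bright probe set of Idi1 read 2065 and 819 in ESC, 2546 and 1791 in EpiSC-like cells, and 2707 and 1917 at day 7. On that set both SFEBq groups overlapped ESC (0.71 ± 0.47 and 0.80 ± 0.47).

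Fdps (NCBI gene 110196), the farnesyl diphosphate synthase that supplies squalene as well as protein prenylation, differed least from ESC. It read 3130 and 2869 in ESC, 2388 and 5009.9 in EpiSC-like cells, and 3448 and 4652 at day 7. The EpiSC-like arrays lay on either side of ESC, so that the difference was -0.39 within the replicate 1 arrays and 0.80 within the replicate 2 arrays. Pooled, it was 0.21 ± 0.38 in EpiSC-like cells and 0.42 ± 0.38 at day 7 (limma adjusted p = 0.865 and 0.622). Without EpiSC-like replicate 2 the EpiSC-like value turned to -0.33.

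At the squalene steps, Sqle (NCBI gene 20775) encodes squalene epoxidase, the pathway's other control enzyme. It read 2064 and 1337 in ESC, 3075 and 3132 in EpiSC-like cells, and 3379 and 2509.6 at day 7. The 4 SFEBq arrays exceeded both ESC arrays. Log2 differences from ESC were 0.90 ± 0.30 in EpiSC-like cells and 0.80 ± 0.30 at day 7 (limma adjusted p = 0.209 and 0.229). The replicate 1 arrays alone gave 0.57 and 0.71, and the replicate 2 arrays 1.22 and 0.90. Sqle was the only member with a value below 0 for day 7 against EpiSC-like cells (-0.09 ± 0.30, limma adjusted p = 0.933).

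Lss (NCBI gene 16987) encodes lanosterol synthase, which closes the sterol rings. It read 816 and 523 in ESC, 928 and 1159 in EpiSC-like cells, and 1311 and 883 at day 7, again with both ESC arrays lowest. Log2 differences from ESC were 0.65 ± 0.33 and 0.71 ± 0.33 (limma adjusted p = 0.403 and 0.318). They were 0.18 and 0.67 within the replicate 1 arrays, and 1.12 and 0.74 within the replicate 2 arrays. A second bright probe set of Lss stood at 0.39 ± 0.23 and 1.02 ± 0.23 in the same comparisons, so its day 7 value exceeded its EpiSC-like value by more.

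Beyond lanosterol, Cyp51 (NCBI gene 13121) encodes the demethylase that acts first on it. Its signal was 952 and 415 in ESC, 1238 and 1363 in EpiSC-like cells, and 1381 and 1325 at day 7. The SFEBq arrays kept within a narrow range above both ESC arrays, which differed from each other by more than the SFEBq arrays did. Log2 differences from ESC were 1.03 ± 0.39 and 1.08 ± 0.39 (limma adjusted p = 0.266 and 0.218). Within the replicate 1 arrays they were 0.37 and 0.53, and within the replicate 2 arrays 1.68 and 1.64.

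Dhcr7 (NCBI gene 13360) encodes the reductase of the last step to cholesterol, whose loss causes Smith-Lemli-Opitz syndrome. It read 465 and 393 in ESC, 595 and 850.4 in EpiSC-like cells, and 649.7 and 966 at day 7. ESC was lowest, and within each SFEBq group the replicate 2 array was the higher. Log2 differences from ESC were 0.71 ± 0.31 and 0.87 ± 0.31 (limma adjusted p = 0.325 and 0.210). The replicate 1 arrays alone gave 0.34 and 0.47, and the replicate 2 arrays 1.08 and 1.27.

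Insig1 (NCBI gene 231070) encodes the feedback protein that keeps SCAP and SREBP2 in the endoplasmic reticulum and helps to degrade the reductase. It read 1444 and 874 in ESC, 2096 and 2253 in EpiSC-like cells, and 4358 and 4004 at day 7. The 3 groups did not overlap, and the levels followed the order ESC, EpiSC-like, day 7. Insig1 rose by 1.88 ± 0.29 from ESC to day 7 (limma adjusted p = 0.0495), with 1.58 within the replicate 1 arrays and 2.18 within the replicate 2 arrays. It stood at 0.94 ± 0.29 for EpiSC-like cells against ESC (adjusted p = 0.182) and at 0.94 ± 0.29 for day 7 against EpiSC-like cells (adjusted p = 0.240).

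The Insig1 call lies at the threshold. Over single probe sets in place of genes, 0 of the 18 passed at day 7 against ESC (Insig1 limma adjusted p = 0.0736). The share of all probe sets that passed was not counted, so the 0 says nothing about the members as a group. Further, 10 of 17 alternative settings lost the call and all 17 kept the direction (log2 differences 1.52 to 2.24, smallest limma adjusted p = 0.00726). These settings are not all separate. Leaving out either EpiSC-like array gives the same fit for this comparison as using only the 2 groups compared. The call was lost with arrays centred on their medians (limma adjusted p = 0.0608) and with the replicate number as a block (adjusted p = 0.0744). It was also lost when any 1 of the 6 arrays was left out. Such fits leave 1 array in a group and fewer arrays to estimate the spread.

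**Figure D2:**
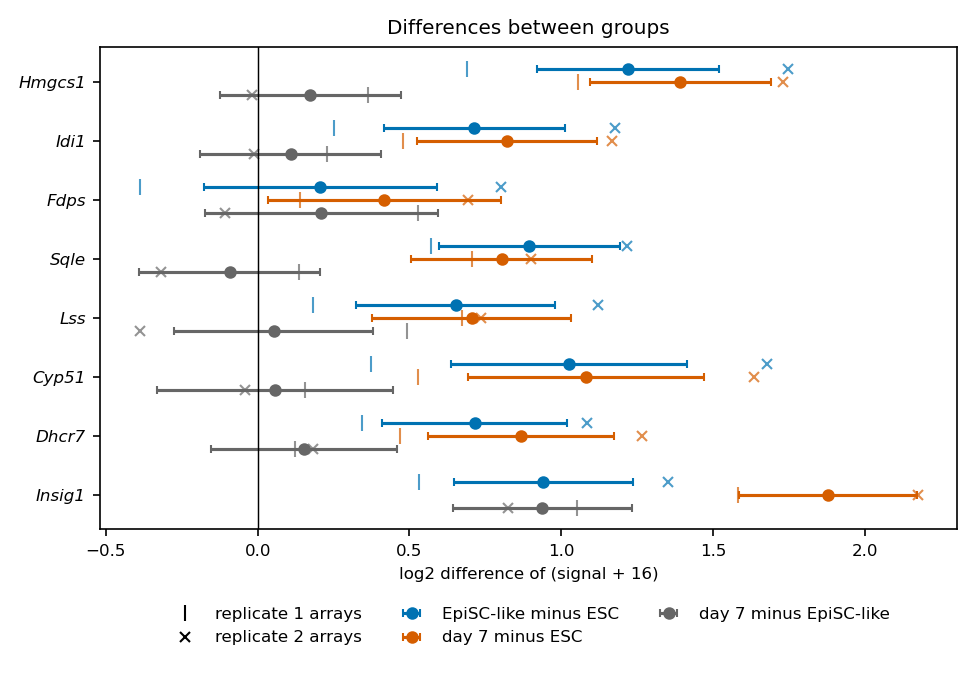
Log2 difference of signal + 16 for each gene in the 3 comparisons (points, bars = SE of the limma fit), with the difference within the replicate 1 arrays (vertical ticks) and within the replicate 2 arrays (crosses). In both comparisons with ESC the replicate 2 value lies above the replicate 1 value for all 8 genes, and Insig1 at day 7 (1.88) is farthest from 0.

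At an adjusted p under 0.05, limma called 0 of the 8 genes in EpiSC-like cells against ESC, where 1.9% of all genes were called (1.31% higher and 0.583% lower). At an unadjusted p under 0.05, 5 of the 8 passed, all higher, against 16% of all genes (9.75% higher). Day 7 against ESC gave 1 call of 8 (1.04% of all genes, 0.753% higher and 0.286% lower). At an unadjusted p under 0.05 it gave 6, all higher (18.3% of all genes, 11.1% higher). Day 7 against EpiSC-like cells gave 0 calls of 8 (0.0385% of all genes, 0.022% higher and 0.0165% lower). At an unadjusted p under 0.05 it gave 1, Insig1, which was higher (14.1% of all genes, 7.5% higher). Over all genes the calls against ESC were 239 higher and 106 lower in EpiSC-like cells and 137 and 52 at day 7. With arrays centred on their medians they were 184 and 149, and 93 and 82.

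Both EpiSC-like arrays exceeded both ESC arrays for 7 of the 8 genes, all but Fdps, where 25% of all genes did so, and lay below them for 0 of 8 (19.9% of all genes). Both day 7 arrays exceeded both ESC arrays for 8 of 8 (26.6% of all genes) and lay below them for 0 (23.5%). Between the SFEBq groups day 7 was above for 1 of 8, Insig1 (21.3% of all genes), and below for 0 (24.5%). That count uses 1 probe set per gene. Further sets of Lss (0.63 ± 0.23), Cyp51 (0.34 ± 0.36) and Hmgcs1 (1.40 ± 0.42) also had both day 7 arrays above both EpiSC-like arrays. That Hmgcs1 set was below the median gene signal, and the remaining unused sets overlapped. Among all differences from ESC, those of the members ranked from the 65.3rd (Fdps) to the 96.1st percentile (Hmgcs1) in EpiSC-like cells. At day 7 they ranked from the 76.4th (Fdps) to the 98.8th percentile (Insig1). For day 7 against EpiSC-like cells Insig1 ranked at the 95.0th percentile and the others between the 43.7th (Sqle) and the 69.8th (Fdps).

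**Figure D3:**
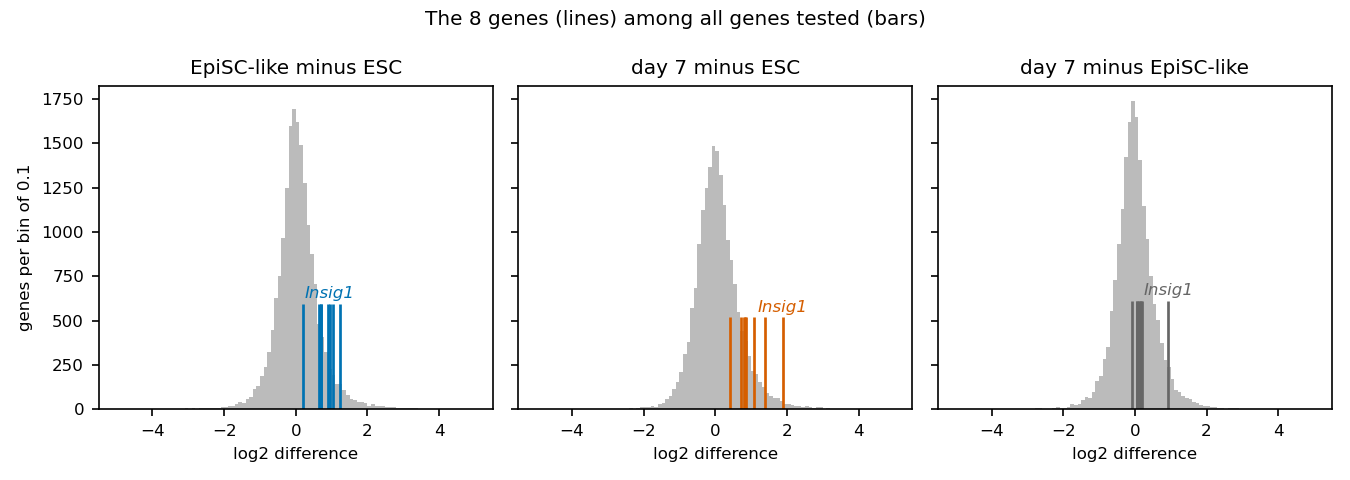
Histograms of the log2 differences of all 18194 genes (grey bars, 0.1 per bin) in the 3 comparisons, with the 8 genes as coloured lines. The lines lie right of 0 in both comparisons with ESC. Between the SFEBq groups 7 lie near 0, with Insig1 apart at 0.94, each gene by the 1 probe set that represents it.

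The replicates of ESC differed for these genes. ESC replicate 2 read lower than ESC replicate 1 for 8 of the 8, with a median log2 gap of -0.62 (-1.17 to -0.12), while 49.5% of all genes were lower there and the median gap of all genes was 0.01. In EpiSC-like cells replicate 2 was the lower for 0 of the 8 (48.5% of all genes), and at day 7 for 5 (45.1%). The poly-A controls, RNAs added before labelling, averaged 65.4 on the second ESC array and 71.9 on replicate 2 of the EpiSC-like cells, against 500.3 to 720.2 on the other 4 arrays. Their part in these values was not tested. Without ESC replicate 2 the members' median difference from ESC was 0.51 in EpiSC-like cells and 0.50 at day 7. Without ESC replicate 1 it was 1.14 and 1.15.

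The members' signals differed from one another mainly in Fdps. Over the 6 arrays, each member's Pearson r with the mean of the other 7 was 0.87 to 0.98, except for Fdps at 0.53. The 28 pairs had r from 0.29 (Sqle and Fdps) to 0.99, with a median of 0.85. These values share the arrays and their scaling and rest on 3 groups of 2, so they are descriptions. Of the 18 probe sets, the 14 at or above the median gene signal all lay above 0 in both comparisons with ESC. The 4 dim ones were the remaining Fdps set and single sets of Cyp51, Lss and Hmgcs1. In EpiSC-like cells all 18 sets lay above 0 against ESC, and at day 7 16 did. The dim sets of Cyp51 (-0.16 ± 0.56) and Fdps (-0.10 ± 0.30) lay below 0 at day 7. Of Hmgcs1, the 4 bright sets gave 1.17 to 1.29 in EpiSC-like cells and 1.34 to 1.46 at day 7. The set that represents Hmgcs1 is of a type that may also bind similar sequences, while a bright set without that mark gave 1.29 and 1.46.

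The 10 genes most like the mean of the 8 over the 6 arrays were Lpin2, Ogfrl1, Snrnp25, Sh3glb1, Nfatc4, Sptssa, 1700025G04Rik, Hspa1a, Klf6 and Donson. Their r was 0.981 to 0.990, among 4335 genes at or above the median signal with group means at least 0.5 apart, of which 218 had an r of 0.9 or more. Lpin2, a phosphatidate phosphatase, stood at 0.63 in EpiSC-like cells and 0.75 at day 7 against ESC. The heat shock gene Hspa1a stood at 2.08 and 2.98, and none of the 10 passed in any comparison (smallest limma adjusted p = 0.110).

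Of 15 further enzymes of sterol synthesis, 12 were measured and 0 passed in limma in each comparison. At an unadjusted p under 0.05 there were 4 in EpiSC-like cells against ESC, 3 higher and 1 lower (16% of all genes). Day 7 gave 5 against ESC (18.3% of all genes) and 1 against EpiSC-like cells (14.1%), all higher. The median differences of the 12 were 0.26, 0.44 and 0.28. Hsd17b7, a sterol ketoreductase, read 194 and 153 in ESC, 347 and 485 in EpiSC-like cells and 495 and 516 at day 7 (1.18 ± 0.26 and 1.47 ± 0.26 against ESC, limma adjusted p = 0.0884 and 0.0632). Msmo1, which removes methyl groups after Cyp51, read 1351 and 1093 in ESC, 1896 and 2983 in EpiSC-like cells and 3320.4 and 3424 at day 7. It stood at 0.96 ± 0.29 and 1.46 ± 0.29 (adjusted p = 0.174 and 0.0757). In both genes all 4 SFEBq arrays exceeded both ESC arrays, as in 7 of the 8 members. The share of all genes that did so was not counted.

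Fdft1, squalene synthase, stood at 0.59 ± 0.29 in EpiSC-like cells and 1.09 ± 0.29 at day 7 (limma adjusted p = 0.392 and 0.128). The sterol reductase Tm7sf2 stood at 0.20 ± 0.25 and 1.08 ± 0.25 (adjusted p = 0.776 and 0.101), with both day 7 arrays (488 and 499.6) above the other 4. The list as a whole was mixed: 9 of 12 were above 0 and 3 below in each comparison. Both EpiSC-like arrays lay above both ESC arrays in 4 of the 12 and below them in 2 (25% and 19.9% of all genes). Both day 7 arrays lay above both ESC arrays in 8 and below them in 1 (26.6% and 23.5% of all genes). The enzyme lower in EpiSC-like cells at an unadjusted p under 0.05 was the sterol isomerase gene Ebp, named after its values were seen. It read 3489 and 3448 in ESC, 2129 and 2316 in EpiSC-like cells and 2711 and 3188 at day 7 (-0.64 ± 0.23 for EpiSC-like cells, limma adjusted p = 0.232).

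None of the 6 regulators of SREBP passed in limma. At an unadjusted p under 0.05 there were 2, 0 and 1 in the 3 comparisons (16%, 18.3% and 14.1% of all genes). Srebf2, the gene of SREBP2 itself and chosen for naming after its values were seen, read 958 and 752 in ESC, 826 and 673 in EpiSC-like cells and 1043 and 689 at day 7, with all groups overlapping. Scap, the escort of SREBP, read 569 and 578 in ESC, 1057 and 1309 in EpiSC-like cells and 635 and 776 at day 7. Its difference was 1.02 ± 0.24 from ESC to EpiSC-like cells and -0.73 ± 0.24 from there to day 7 (adjusted p = 0.103 and 0.261), so its highest arrays were those of day 3. The protease gene Mbtps2 stood at -0.70 ± 0.27 and 0.49 ± 0.27 in those comparisons. Against ESC, Srebf1 stood at 0.18 and 0.43 and Insig2 at 0.30 and 0.26 in EpiSC-like cells and at day 7.

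Genes of cholesterol uptake and transport, 7 measured of 10, had median differences from ESC of 0.15 in EpiSC-like cells and 0.71 at day 7. There were 0 calls in limma, and 2 and 4 at an unadjusted p under 0.05 (16% and 18.3% of all genes). Stard4, a sterol carrier, read 556 and 242 in ESC, 866 and 733 in EpiSC-like cells and 1524 and 1087 at day 7. Its 3 groups did not overlap (1.76 ± 0.41 for day 7 against ESC, limma adjusted p = 0.103). That order was also seen in Insig1, Fdft1, Hsd17b7 and Msmo1, among others, and the share of all genes with it was not counted. Scarb1, a lipoprotein receptor, stood at 1.27 ± 0.28 for day 7 against ESC and at -0.42 ± 0.28 for EpiSC-like cells (adjusted p = 0.0924 and 0.543). Vldlr stood at 1.24 ± 0.46 at day 7 and 0.17 ± 0.46 in EpiSC-like cells, and Mylip, which degrades lipoprotein receptors, at 0.29 and -0.60.

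The LXR and efflux genes had medians of -0.59 and -0.31 against ESC over 4 measured of 5, with 0 calls in limma. At an unadjusted p under 0.05 there were 1 and 0 (16% and 18.3% of all genes). The efflux pump gene Abca1 read 1091 and 532 in ESC, 318 and 135 in EpiSC-like cells and 503 and 703 at day 7 (-1.80 ± 0.49 for EpiSC-like cells against ESC, adjusted p = 0.142). Apoe stood at -1.07 ± 0.46 and -0.28 ± 0.46, Abcg1 at 0.70 ± 0.47 and 1.09 ± 0.47, and Nr1h3 at -0.12 and -0.43.

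Fatty acid genes, mostly targets of the sister factor SREBP1, had medians of 0.39 and 0.52 against ESC over 10 genes, with 0 calls in limma. At an unadjusted p under 0.05 there were 1 and 5 (16% and 18.3% of all genes). Fads2, a desaturase, read 419 and 191 in ESC, 1074 and 891 in EpiSC-like cells and 1099.6 and 912 at day 7 (1.73 ± 0.38 and 1.76 ± 0.38, adjusted p = 0.0847 and 0.0878). The desaturase gene Scd1 read 1236 and 287 in ESC against 995 and 1060.2 in EpiSC-like cells and 2170.1 and 1950.1 at day 7. Both EpiSC-like arrays thus lay between the ESC arrays. Scd2 stood at 0.76 ± 0.48 and 1.15 ± 0.48, and Me1 at 0.66 ± 0.31 and 0.95 ± 0.31.

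The branch to other isoprenoids had medians of -0.20 and -0.10 against ESC over 7 measured of 8, with 0 calls in limma. At an unadjusted p under 0.05 there were 1 and 1 (16% and 18.3% of all genes). Fntb, a farnesyltransferase subunit, stood at -0.93 ± 0.28 and -1.003 ± 0.277 (adjusted p = 0.168 and 0.138), while Pdss2 stood at -0.32 and -0.62, Pggt1b at 0.06 and 0.60, and Ggps1 at 0.07 and 0.42. Oxysterol enzymes had medians of 0.26 and 0.59 over 5 genes, with 0 calls in limma and 1 and 3 at an unadjusted p under 0.05 (same shares of all genes). Of these, Cyp39a1 stood at 0.26 and 1.27, Cyp27a1 at 0.75 and 0.86, Cyp7b1 at 0.26 and 0.59 and Ch25h at -0.47 and 0.24.

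**Figure D4:**
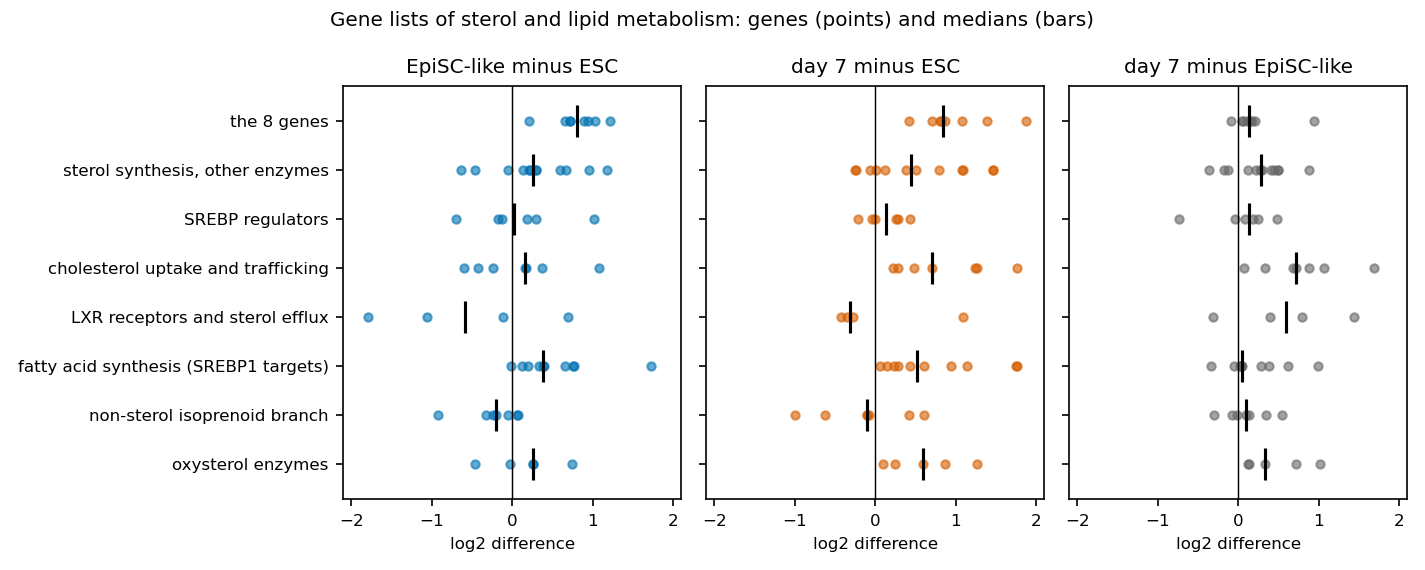
Log2 differences of each measured gene (points) and list medians (bars) for the 8 genes and 7 further lists of sterol and lipid metabolism. The 8 genes have the highest median of the lists in both comparisons with ESC (0.80 and 0.84), and between the SFEBq groups the uptake list does (0.72). Genes and lists were chosen with earlier results of these data known, so this ranking is a description.

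Of the 8 visceral endoderm markers, limma called 0 at day 7 against ESC (1.04% of all genes), and their median difference was 1.57. At an unadjusted p under 0.05 there were 6 (18.3% of all genes). Their summed signals were 557 and 2878 on the day 7 arrays, and their part in the day 7 values was not tested. The summed signal of the 8 cholesterol genes on the same arrays was 29729 and 30334, and Insig1 read 4358 and 4004. Sums add signals of different probes, so they are read between arrays and not between lists. Hmgcs1 alone held 11419.8 and 12288 of the sum of the 8 genes, and 5 of the 8 read lower on the replicate 2 array. Culture, gate and, at day 7, dissociation differ between the groups and cannot be told apart from the differences given here.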

How the data were processed

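Affymetrix mouse whole-genome arrays were hybridised with RNA from sorted mouse cells, 2 arrays in each of 3 groups. The authors deposited 1 linear intensity for each probe set and array, made with Affymetrix Expression Console 1 per the submitters' processing notes. Which summary algorithm they ran is not stated there. Of 45101 probe sets, 34945 were annotated to 1 gene, 932 to several and 9211 to none, and 64 were controls. NCBI gene identifiers matched RefSeq (GRCm38.p6) for 34741 probe sets. Log2(signal + 16) was fitted with limma 3.58.1 (R 4.3.3) to 3 group means over all 6 arrays, with empirical Bayes moderation and Benjamini-Hochberg adjustment over 18194 genes, calling at 0.05. No filter was applied. Array data give no counts, so the number of arrays limits the precision. Scripts were tested on simulated data.

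The 8 genes and all gene lists were chosen with earlier results of these data known. Named are the 8 genes, list genes that passed or had the 4 largest differences of their list, and the 10 genes most like the mean of the 8. Entries of the lists that were not matched are not analysed here. Alternatives covered the pseudocount, scaling, low-signal filters, choice of probe set, variance trend, samples fitted, replicate block and each array left out.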

Additional observations from a re-analysis of the deposited data

How the results depend on the processing

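With 3 residual degrees of freedom, the number of calls depended on the settings. The members' median difference ranged over the alternatives from 0.51 to 1.14 in EpiSC-like cells and from 0.50 to 1.15 at day 7 against ESC (without ESC replicate 2 and without ESC replicate 1), and from -0.085 to 0.31 between the SFEBq groups (without EpiSC-like replicate 1 and without EpiSC-like replicate 2). Genes called in EpiSC-like cells against ESC (345) numbered 0 with a pseudocount of 1, 672 with 64, 672 and 734 after removing genes below the 25th percentile or below the median, 794 with a variance trend and 41 with only the groups compared, and 0 to 63 with 1 array left out. For day 7 against ESC (189) these counts were 0, 679, 567, 843, 791 and 0, and 0 to 10 with 1 array left out. Between day 7 and EpiSC-like cells (7) the counts were 0, 206, 144, 315, 199 and 0, with 0 for each array left out, 0 after quantile normalization and 0 with the probe set of highest mean signal, an alternative chosen after seeing the data.

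Members called in EpiSC-like cells (0) numbered 1, Hmgcs1, among genes above the median and with a trend. At day 7 against ESC (1) they numbered 0 with a pseudocount of 1, centred arrays, only the groups compared and each array left out (0 to 0), and 2 with a pseudocount of 64, both filters and a trend. Other sterol enzymes called (0) numbered 1 in EpiSC-like cells with a pseudocount of 64, both filters and a trend, and at day 7 against ESC 3, 2, 4 and 3 in those settings and 1 with the mean of all probe sets.

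With the replicate number as a block, 0 genes passed in any comparison (smallest adjusted p 0.0505, 0.0664 and 0.124), and 0 members at day 7 against ESC. Deviations of same-numbered arrays correlated at 0.283, 0.079 and 0.097 in the 3 pairs of groups. These are not all over 0.1 and no label pairs the arrays, so the number was not taken as a pairing, although the highest signals differed by it. With 1 array left out, Fdps in EpiSC-like cells against ESC ranged from -0.33 (without EpiSC-like replicate 2) to 0.74. Between day 7 and EpiSC-like cells, signs turned in such fits for 6 members: Hmgcs1 ranged from -0.071 to 0.42, Sqle from -0.30 to 0.12, Fdps from -0.32 to 0.74, Lss from -0.23 to 0.33, Cyp51 from -0.011 to 0.13 and Dhcr7 from -0.13 to 0.43. Centred arrays gave Lss -0.0076 and Cyp51 -0.0028, and the mean of probe sets Fdps -0.016 and Cyp51 -0.18. The cause was not tested. Centring moved the all-gene median to -0.13, -0.20 and -0.08 in the 3 comparisons, and the members' medians relative to it stayed at 0.78, 0.83 and 0.15.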
